A study of Mus musculus with 22 samples.

Results

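Microglia, the resident macrophages of the brain, were compared with bone marrow derived macrophages (BMDM) in 4 RNA libraries out of the 22 samples of a study of mutant huntingtin in mouse myeloid cells, 10 of RNA and 12 of chromatin immunoprecipitation. Huntingtin is the protein whose lengthened glutamine tract causes Huntington's disease. Microglia gave 2 libraries, 1 from mice with 7 glutamines in both huntingtin alleles (Q7, the wild type) and 1 from mice with 175 in both (Q175, the mutant). BMDM gave 2 libraries from the same genotypes, and none of the 4 had a treatment. Adult microglia were taken, per the labels' protocols, from cortex, striatum and hippocampus by gentle homogenisation on ice, a Percoll gradient and a sort for single cells with CD11b and low CD45. BMDM were adherent cells grown for days from bone marrow in serum and L-cell conditioned medium, which supplies the growth factor CSF1 (M-CSF). The protocols also name a culture medium for primary microglia, without saying whether cells for these libraries were kept in it after the sort. Cell type therefore goes with tissue, sorting and culture in every library, and these cannot be told apart. The labels do not say whether the libraries came from separate animals or cultures, and the p-values can speak only for the spread among these 4 samples, part of which may be technical.

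All 4 libraries were read in the deposited table of 31641 transcripts, in RPKM (reads scaled to transcript length and sequencing depth). With 1 transcript of 200 bases or more per gene symbol, the one with the highest mean, 22736 genes were left of 23953 symbols. Of these, 10258 genes had 1 RPKM or more in at least 2 of the 4 libraries and were tested. Below, where 4 values are given, the Q7 library comes before the Q175 library within each cell type.

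Microglia arise from yolk sac precursors and renew themselves within the brain, where neurons, astrocytes and TGF-beta keep them in a surveying state marked by purinergic and fractalkine receptors. Bone marrow macrophages come from blood-forming progenitors, which divide under CSF1 and differentiate into phagocytes. Both need the CSF1 receptor and the lineage factor PU.1, and differ in the further factors that act beside PU.1 at macrophage enhancers.

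Read depth implied by the smallest steps in the RPKM values was 34.3 and 28.8 M reads in microglia (M, mega), against 30.2 and 47.8 M in BMDM. Only part of these reads lay on the genes kept: 31.7 and 29.6% in microglia, against 48.5 and 50.4% in BMDM. RPKM is relative to all reads. The median log2 difference over the 10258 genes was -0.57 (microglia minus BMDM, on the log2(RPKM + 1) scale used for every difference here). How far the lower share of reads on genes accounts for this median was not tested. After each library was scaled by its median ratio to the others, that median was 0.01. A gene is therefore called higher or lower below only if it passed an adjusted p of 0.05 in limma, fitted with cell type and genotype over all tested genes, on both the deposited and the scaled values. On deposited values 1725 genes (16.8%) were called higher in microglia and 5312 (51.8%) lower. On scaled values 3487 (34.0%) were higher and 3494 (34.1%) lower. All 1725 higher calls and 3494 of the lower calls held on both scales, and no gene changed direction, so the background for each count below is 16.8% higher and 34.1% lower. With 1 residual degree of freedom, a single standard error of 0.248 log2 units came out for all genes on deposited values, and each difference below carries it. Without the Q7 microglial library, fitted with no genotype term, 1142 genes were called higher on deposited values and 4150 lower.

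Differences between the cell types were similar in the 2 genotypes. A genotype effect common to both cell types would not show in them. The counts in this paragraph are of deposited values, with their median difference of -0.57 over all tested genes, and were not made on scaled ones. Between the Q7 pair and the Q175 pair of libraries, 830 genes were at least 2-fold higher in microglia in both pairs and 3040 at least 2-fold lower in both, while 0 genes moved 2-fold in opposite directions. A further 1228 genes had differences of opposite sign in the pairs, under 2-fold in at least 1 of the pairs. At 16-fold or more in both pairs there were 54 genes higher and 135 lower. Near-exclusive genes were about as many on either side: 162 genes had 1 RPKM or more in both microglial libraries and less than 0.1 in both BMDM libraries, and 155 genes the reverse.

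**Figure D1:**
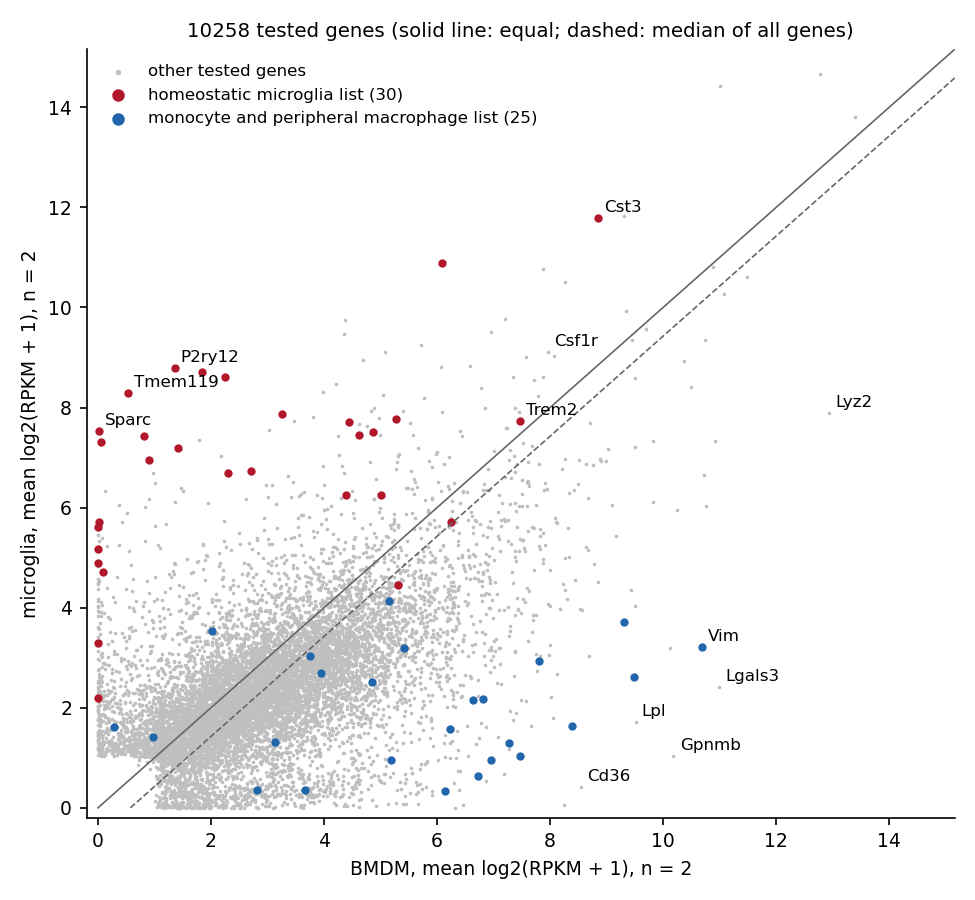
Mean log2(RPKM + 1) of the 2 microglial libraries (vertical axis) against that of the 2 BMDM libraries (horizontal axis) for the 10258 tested genes, each gene 1 grey point, with the homeostatic microglia list and the monocyte and peripheral macrophage list in colour. Tmem119, P2ry12 and Sparc sit high on the left at the top of the microglial axis, and Gpnmb, Lgals3 and Lpl low on the right.

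The labels were checked first against genes that define macrophages. Csf1r, the receptor that both cells need, had 569.5 and 532 RPKM in microglia, against 251 and 247 RPKM in BMDM, a log2 difference of 1.14, and was higher in microglia. Aif1 (Iba1), the calcium-binding protein used to stain microglia, had 83.3 and 62.3 RPKM in microglia, against 21.4 and 16.3 RPKM in BMDM (1.89, higher). Spi1, which encodes PU.1, had 31.2 and 30.7 RPKM in microglia, against 23.4 and 45.0 RPKM in BMDM, with overlapping groups and a difference of -0.07 that was not called on deposited values. All 4 libraries thus held abundant macrophage transcripts. In bulk libraries such as these, fewer cells of a kind and less RNA per cell cannot be told apart, here and for every group described below. The 2 genes of the sort were Itgam (CD11b), with 94.6 and 68.2 RPKM in microglia, against 116 and 106 RPKM in BMDM, and Ptprc (CD45), with 47.5 and 44.3 RPKM in microglia, against 70.7 and 83.8 RPKM in BMDM. Itgam was called on neither scale (deposited adjusted p = 0.0886 by limma), and Ptprc was lower on deposited values alone. Since the sort chose microglia by these proteins, their values describe the gate and test nothing. Emr1 (F4/80) and Cd68, classic markers of mature macrophages, were lower in microglia, Emr1 at 59.9 and 49.9 RPKM in microglia, against 271 and 273 RPKM in BMDM and Cd68 at 51.0 and 53.9 RPKM in microglia, against 115 and 184 RPKM in BMDM. In all, 5 of 16 pan-macrophage genes were higher and 5 lower, with a median difference of -0.76 on deposited values, -0.04 on scaled ones and 0.11 after quantile normalization. Without the Q7 microglial library 3 were higher on deposited values. Its largest difference was in Lyz2, lysozyme of myeloid cells, at 304 and 183 RPKM in microglia, against 7515 and 8098 RPKM in BMDM (-5.04, lower), although reads shared with its copy Lyz1 make both uncertain.

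Microglial identity genes had the largest differences on the microglial side. Tmem119 (mm9 chr5:114243738-114250361), a membrane protein used as a marker of resident microglia, had 334 and 288 RPKM in microglia, against 0.701 and 0.232 RPKM in BMDM, a log2 difference of 7.75. P2ry12 (mm9 chr3:59020193-59066753), the ADP receptor that steers microglial processes towards injury, had 477 and 410.0 RPKM in microglia, against 1.40 and 1.72 RPKM in BMDM (7.44). Cx3cr1, the receptor for the neuronal chemokine fractalkine, had 464 and 332 RPKM in microglia, against 3.04 and 4.53 RPKM in BMDM (6.38). In each of these the microglial libraries lay far above both BMDM libraries. Siglech, a sialic acid binding lectin shared by microglia and plasmacytoid dendritic cells, had 165 and 151 RPKM in microglia, against 0 and 0.079 RPKM in BMDM (7.26). Sparc, a secreted matrix protein, had 208 and 162 RPKM in microglia, against 0 and 0.027 RPKM in BMDM (7.51). Of the 30 homeostatic genes listed, all of which passed the filter, 27 were higher and 0 lower, with a median of 4.63, set beside -0.57 for all genes. Without each library in turn, and under the other settings tried at the same filter, the higher count lay between 27 and 28. Among the 3 exceptions were Trem2, the lipid-sensing receptor tied to Alzheimer's disease risk, with 227 and 197 RPKM in microglia, against 162 and 190.3 RPKM in BMDM, which was not called on deposited values and higher on scaled ones, and P2ry6, called lower on deposited values and not called on scaled ones. In BMDM 5 of the list, Slc2a5 (a fructose transporter), Sall1, Sall3, Upk1b and Gpr165, were listed at 0 in both libraries, so no fold is given for them. Their microglial values were 54.1 and 41.9 RPKM for Slc2a5, 33.3 and 36.4 for Sall1, 8.53 and 9.05 for Sall3, 37.1 and 22 for Upk1b and 6.18 and 1.90 for Gpr165.

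**Figure D2:**
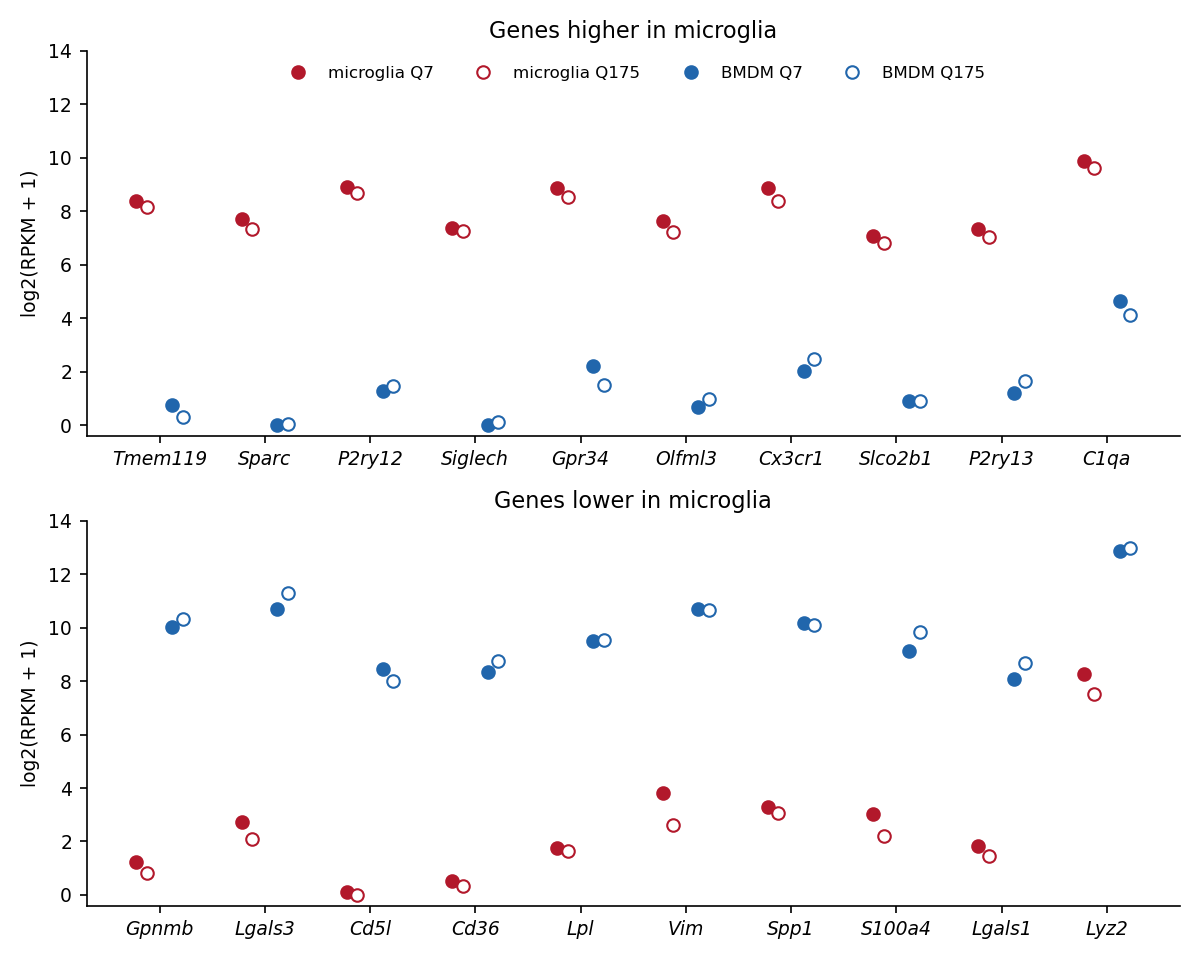
Log2(RPKM + 1) of each library for 10 genes much higher in microglia (upper panel) and 10 much lower (lower panel), with the 2 microglial libraries to the left of the 2 BMDM libraries for each gene. Filled and open points are the Q7 and Q175 libraries, and the 2 points of a cell type lie close together against the gap between cell types.

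Some of the most abundant microglial transcripts were also far above BMDM. Cst3 (cystatin C), a secreted inhibitor of cathepsins, had 3495 and 3590.1 RPKM in microglia, against 396 and 538 RPKM in BMDM (2.94). In BMDM the most abundant protein-coding gene tested was Lyz2, followed by Tmsb4x, an actin-binding peptide, at 1732 and 1395 RPKM in microglia, against 2631 and 3136 RPKM in BMDM, which was lower on deposited values alone. Among the 15 largest higher differences were also G530011O06Rik, an uncharacterised gene, at 131 and 79.4 RPKM in microglia, against 0.723 and 1.25 RPKM in BMDM, Crybb1, a crystallin, at 56.2 and 46.7 RPKM in microglia, against 0.038 and 0 RPKM in BMDM, and Olfml3, a secreted glycoprotein, at 199 and 147 RPKM in microglia, against 0.592 and 0.943 RPKM in BMDM. Slco2b1, an organic anion transporter, had 133 and 113 RPKM in microglia, against 0.859 and 0.861 RPKM in BMDM, and Gpr34, a lysophosphatidylserine receptor, had 464 and 373 RPKM in microglia, against 3.58 and 1.81 RPKM in BMDM. Adamts1, a secreted metalloproteinase, had 76.7 and 55.9 RPKM in microglia, against 0.312 and 0.275 RPKM in BMDM. All 6 were higher.

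To show what lies upstream of such genes, the 250 bases before the start of 4 of them are printed here, from RefSeq on GRCm38.p6, for P2ry12 and Siglech (higher in microglia) and Gpnmb and Cd36 (lower). They were taken among the largest differences with 1 window each in the table. Capitals mark matches, on either strand, to the PU.1 core GGAAGT, the C/EBP type TTGCNNAA, the AP-1 type TGANTCA or the E-box CACGTG, none of which contains another.
P2ry12: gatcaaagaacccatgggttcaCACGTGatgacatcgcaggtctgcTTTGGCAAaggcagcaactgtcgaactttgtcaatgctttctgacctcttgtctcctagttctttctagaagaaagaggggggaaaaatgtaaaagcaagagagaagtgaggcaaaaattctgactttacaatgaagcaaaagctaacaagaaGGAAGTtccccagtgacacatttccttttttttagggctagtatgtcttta
Siglech: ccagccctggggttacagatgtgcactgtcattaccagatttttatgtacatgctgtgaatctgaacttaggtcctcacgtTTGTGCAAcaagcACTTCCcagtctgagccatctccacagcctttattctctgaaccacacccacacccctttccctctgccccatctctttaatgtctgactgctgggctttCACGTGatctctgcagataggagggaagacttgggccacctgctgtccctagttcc
Gpnmb: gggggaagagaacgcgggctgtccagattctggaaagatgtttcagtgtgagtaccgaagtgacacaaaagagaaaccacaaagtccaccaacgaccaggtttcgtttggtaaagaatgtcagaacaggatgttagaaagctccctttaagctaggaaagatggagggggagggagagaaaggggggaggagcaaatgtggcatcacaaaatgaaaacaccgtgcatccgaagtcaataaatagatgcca
Cd36: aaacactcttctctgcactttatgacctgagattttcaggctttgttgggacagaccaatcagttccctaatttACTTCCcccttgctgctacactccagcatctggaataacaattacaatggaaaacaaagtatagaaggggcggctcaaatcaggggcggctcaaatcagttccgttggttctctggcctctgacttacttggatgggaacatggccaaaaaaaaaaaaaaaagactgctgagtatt
P2ry12 (chr3:59262986-59263235, minus strand) and Siglech (chr7:55767934-55768183, plus strand) each held 1 PU.1 core, 1 C/EBP type match and 1 E-box, and Cd36 (chr5:17835897-17836146, minus strand) held 1 PU.1 core. Gpnmb (chr6:49036268-49036517, plus strand) held 0 of these letters in the window. Sparc and Olfml3 (higher in microglia) and Lgals3 and Cd5l (lower) were also among the largest differences with 1 window each. Their windows, not printed, each held 0 of these letters. The shares of promoters with these letters were counted over all genes with a single window. The PU.1 core was in 27.4% of 1017 promoters of genes higher in microglia, in 26.7% of 2124 of genes lower, in 26.4% of 6222 of tested genes, and in 20.2% of all 22862. TTGCNNAA was in 8.46% of the higher genes' promoters, 7.02% of the lower genes', 7.22% of tested genes' and 9.60% of all. CACGTG was in 8.46%, 7.82%, 8.97% and 5.92% of the same 4 sets. TGANTCA was in 3.24% of the higher genes' promoters, 5.37% of the lower genes', 3.92% of tested genes' and 6.96% of all.

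Transcription factors divided into those carried by both cells and those found mainly in one. Sall1 and Sall3, zinc finger factors of which Sall1 is a known keeper of microglial identity, had the largest differences on the microglial side among the tested factors of this list, as given above. Cebpa, a C/EBP factor of myeloid commitment, had 65.6 and 92.4 RPKM in microglia, against 10.1 and 13.3 RPKM in BMDM (2.65) and was higher. Also higher were Irf8, which directs the macrophage fate and is needed by microglia, at 57.6 and 52.1 RPKM in microglia, against 19.1 and 25.3 RPKM in BMDM (1.28), and Mef2c, a MADS-box factor, at 24.2 and 21.6 RPKM in microglia, against 6.86 and 9.88 RPKM in BMDM (1.37). Cebpb and Cebpd, the inflammation-linked members of the family, had 48.2 and 55.1 RPKM in microglia, against 31.1 and 43.7 RPKM in BMDM and 13.7 and 12.8 RPKM in microglia, against 8.89 and 9.49 RPKM in BMDM, and neither was called on deposited values. Against these stood Pparg, the lipid-activated nuclear receptor, at 0.063 and 0.038 RPKM in microglia, against 18.5 and 21.2 RPKM in BMDM (-4.31), and Nr1h3 (LXR alpha), the oxysterol receptor, at 0.196 and 0.058 RPKM in microglia, against 4.36 and 5.71 RPKM in BMDM (-2.41). Tfec and Mitf, related basic helix-loop-helix factors of macrophages and osteoclasts, had 0.429 and 0.157 RPKM in microglia, against 10.3 and 10.3 RPKM in BMDM and 4.20 and 4.90 RPKM in microglia, against 14.7 and 15.2 RPKM in BMDM. Irf7, the amplifier of interferon genes, had 2.71 and 5.13 RPKM in microglia, against 76.8 and 76.1 RPKM in BMDM (-4.02). All 5 were lower in microglia. Of 56 factors tested out of 65 listed, 23 were higher and 14 lower (median 0.30). On scaled values 35 were higher, Spi1, Cebpb and Cebpd among them.

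**Figure D3:**
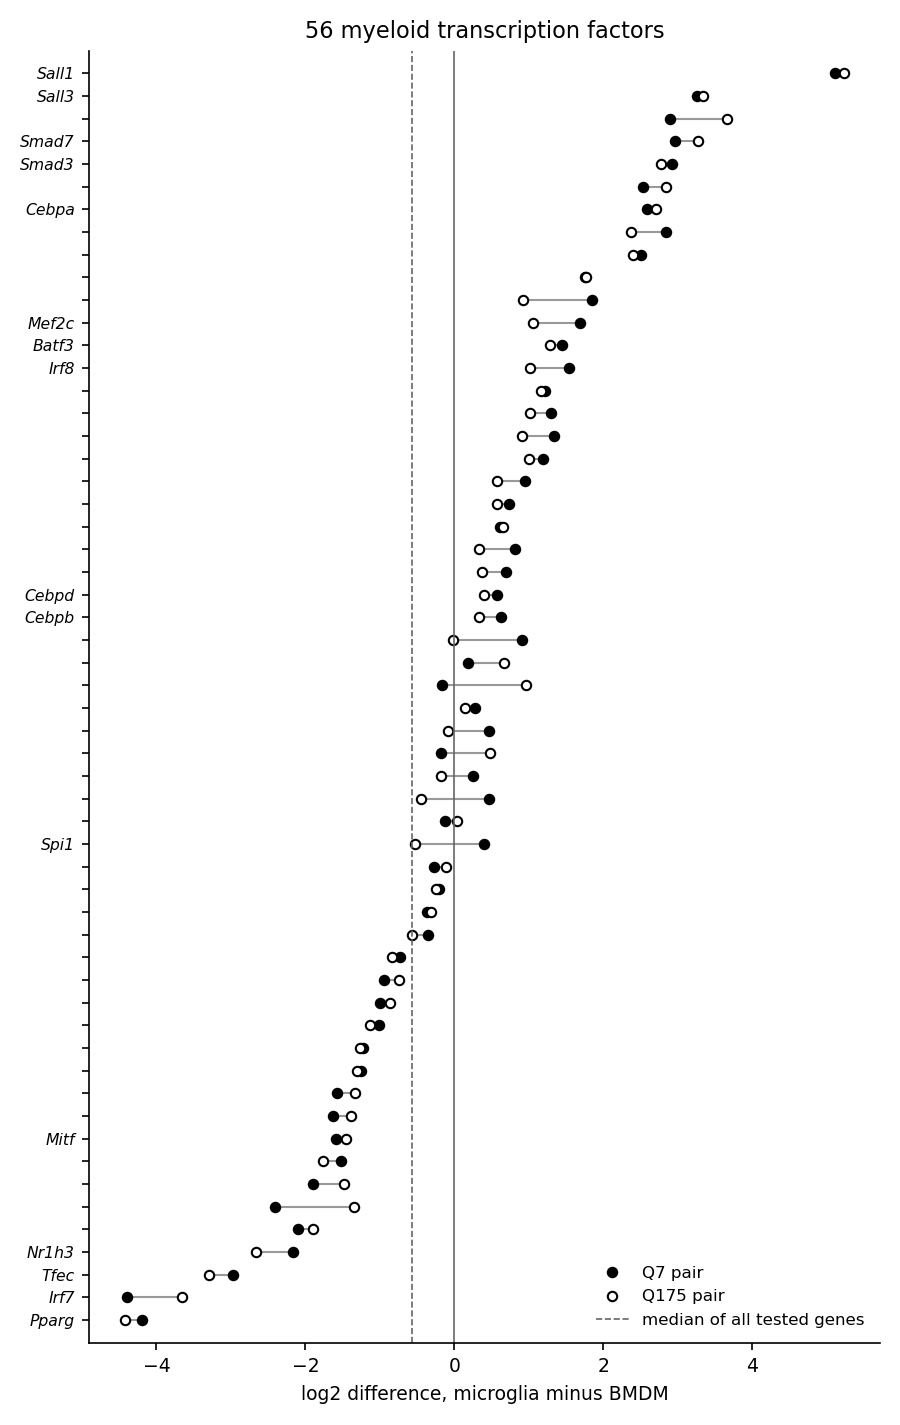
Log2 difference (microglia minus BMDM) of the 56 tested myeloid transcription factors in the Q7 pair (filled points) and in the Q175 pair (open points), sorted by their mean, with the median of all tested genes as a dashed line. Names are given for the factors described in the text. Sall1 and Sall3 are at the top, Pparg and Irf7 at the bottom, and Spi1 lies near 0.

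TGF-beta, a secreted factor that maintains microglia, acts through the receptors Tgfbr1 and Tgfbr2 and the SMAD proteins. Tgfbr1 had 188 and 159.9 RPKM in microglia, against 22.1 and 25.4 RPKM in BMDM (2.82) and Tgfbr2 61.6 and 59.6 RPKM in microglia, against 13 and 17.3 RPKM in BMDM (1.94). Smad3, the signal carrier, had 9.98 and 9.14 RPKM in microglia, against 0.449 and 0.486 RPKM in BMDM (2.85), and Smad7, an inhibitor induced by the pathway, had 19.5 and 20.5 RPKM in microglia, against 1.63 and 1.23 RPKM in BMDM (3.12). Skil and Ski, repressors that bind SMADs, were higher as well, with differences of 2.08 and 1.79. The ligand itself, Tgfb1, was not called on either scale, at 7.40 and 10.1 RPKM in microglia, against 10.6 and 12.5 RPKM in BMDM. Nrros, which holds latent TGF-beta on the microglial surface, was lower, at 28.7 and 20.9 RPKM in microglia, against 53.6 and 69.9 RPKM in BMDM (-1.29). Of 16 pathway genes tested, 7 were higher and 1 lower; the other 8 of 24, including Tgfb2 and Tgfb3, were under the filter.

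Growth factors and their receptors went both ways. Csf1, the ligand of Csf1r, had 8.62 and 13.3 RPKM in microglia, against 0.772 and 0.416 RPKM in BMDM (2.89), and Csf3r, the G-CSF receptor, had 42.5 and 45.7 RPKM in microglia, against 5.05 and 4.31 RPKM in BMDM (2.99). The receptors Il10ra, for the calming cytokine interleukin-10, and Il4ra, for interleukin-4, had 122 and 117 RPKM in microglia, against 27.0 and 27.0 RPKM in BMDM and 23.1 and 18.9 RPKM in microglia, against 5.59 and 5.58 RPKM in BMDM. All 4 were higher in microglia. Igf1, a trophic factor, had 0.202 and 0.241 RPKM in microglia, against 48.1 and 41.4 RPKM in BMDM (-5.22), Vegfa, an angiogenic factor, had 0.492 and 0.293 RPKM in microglia, against 84.6 and 30.6 RPKM in BMDM (-5.23), and Csf2rb, the shared chain of the GM-CSF receptor, had 8.80 and 8.44 RPKM in microglia, against 45.7 and 32.3 RPKM in BMDM (-2.04). These 3 were lower. The list counted 10 higher and 9 lower of 26 tested.

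Receptors for nucleotides and chemoattractants lay on both sides. Besides P2ry12, the microglial side held P2ry13, a related ADP receptor, at 161 and 129.8 RPKM in microglia, against 1.30 and 2.11 RPKM in BMDM, Adora3, an adenosine receptor, at 20.9 and 17.7 RPKM in microglia, against 0.391 and 0.672 RPKM in BMDM, and Entpd1 (CD39), which degrades extracellular ATP, at 78.3 and 65.6 RPKM in microglia, against 13.2 and 16.2 RPKM in BMDM. The BMDM side held P2ry14, a UDP-glucose receptor, at 0.145 and 0.065 RPKM in microglia, against 16.7 and 11.7 RPKM in BMDM, and P2rx4, an ATP-gated channel, at 9.39 and 9.98 RPKM in microglia, against 30.9 and 31.1 RPKM in BMDM. Kcnn4, a calcium-activated potassium channel, had 0.646 and 0.358 RPKM in microglia, against 38.6 and 47.3 RPKM in BMDM. The first 3 were higher in microglia and the other 3 lower. Ccr2, the receptor by which monocytes answer Ccl2, had 5.09 and 2.29 RPKM in microglia, against 92.8 and 104 RPKM in BMDM (-4.47), the reverse of Cx3cr1. Cxcr4, which holds cells in bone marrow, had 3.50 and 1.58 RPKM in microglia, against 31.9 and 30.3 RPKM in BMDM, and C3ar1, the receptor for complement C3a, had 26.5 and 25.6 RPKM in microglia, against 200.5 and 216 RPKM in BMDM. All 3 were lower in microglia, while Cmklr1, the chemerin receptor, was higher at 26.6 and 24.9 RPKM in microglia, against 2.24 and 0.929 RPKM in BMDM. Of 26 purinergic and channel genes 12 were higher and 10 lower, and of 20 chemoattractant receptors 7 and 8.

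Genes of the rapid response to stimuli were higher in microglia almost throughout. Immediate-early genes are those that cells switch on within minutes of a signal, with no need for new protein. Fos, a subunit of the AP-1 factor, had 586 and 635 RPKM in microglia, against 62.0 and 42.3 RPKM in BMDM (3.55), and its partner Jun had 532 and 452 RPKM in microglia, against 23.1 and 26.9 RPKM in BMDM (4.24). Egr1, a zinc finger factor, had 149 and 178 RPKM in microglia, against 2.92 and 2.06 RPKM in BMDM (5.57), and Rhob, a small GTPase, had 743 and 681 RPKM in microglia, against 15.8 and 23.7 RPKM in BMDM (5.13). These 4 were higher in microglia. Of 30 such genes tested, 27 were higher and 1 lower (median 2.96), and over the other settings at the same filter the higher count lay between 26 and 28. Gadd45b, a stress-response gene, was the one lower on both scales, at 5.44 and 7.04 RPKM in microglia, against 30.8 and 16.5 RPKM in BMDM. The heat shock genes Hspa1a and Hspa1b had differences of 5.38 and 5.29, though they are near-identical copies whose reads may be split. The homogenisation, gradient and antibody staining of the microglial preparation were not applied to BMDM, and preparation and cell type cannot be told apart here.

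Cytokine genes and regulators of NF-kB went both ways. Nfkbiz, an inducible nuclear regulator of NF-kB, had 119 and 143 RPKM in microglia, against 3.90 and 3.16 RPKM in BMDM (4.86), and Nfkbia, the inhibitor that NF-kB induces, had 93.2 and 94.9 RPKM in microglia, against 27.8 and 30.7 RPKM in BMDM (1.65). Il1a, interleukin-1 alpha, had 68.9 and 91.2 RPKM in microglia, against 0.202 and 0 RPKM in BMDM (6.19). The chemokines Ccl3 and Ccl4 had 212 and 306 RPKM in microglia, against 23.5 and 34.8 RPKM in BMDM and 415 and 484 RPKM in microglia, against 50.7 and 87.3 RPKM in BMDM, and Ccl12 had 217 and 159 RPKM in microglia, against 7.10 and 7.13 RPKM in BMDM. All 6 were higher. Tnf, by contrast, was called on neither scale, with 25.9 and 40.1 RPKM in microglia, against 39.4 and 38.2 RPKM in BMDM. Il1b was low in all 4 libraries, with 3.08 and 4.19 RPKM in microglia, against 2.51 and 0.683 RPKM in BMDM, a difference of 0.92, and it was higher on both scales. It was not called without any 1 of the Q7 microglial (1.1), Q175 microglial (0.75) or Q175 BMDM (0.39) libraries. On the BMDM side were Spp1 (osteopontin), an adhesive cytokine, at 8.81 and 7.44 RPKM in microglia, against 1141 and 1085 RPKM in BMDM (-6.94), Ccl9 at 15.0 and 14.6 RPKM in microglia, against 383 and 350.1 RPKM in BMDM (-4.54), and Il1rn, the interleukin-1 receptor antagonist, at 0.352 and 0.203 RPKM in microglia, against 17.4 and 11.4 RPKM in BMDM (-3.57). Of 28 cytokine genes 9 were higher and 16 lower. Of 17 NF-kB genes 7 were higher and 1 lower. The lower one was Tnip1, an A20-binding inhibitor, at 1.86 and 2.26 RPKM in microglia, against 40.1 and 25.1 RPKM in BMDM.

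Pattern sensors were more evenly spread, with 7 of 32 higher and 9 lower. Tlr12 was nearly confined to microglia, at 5.25 and 4.08 RPKM in microglia, against 0 and 0.033 RPKM in BMDM. Tlr8, an endosomal RNA sensor, was nearly confined to BMDM, at 0.462 and 0.276 RPKM in microglia, against 48.8 and 49.5 RPKM in BMDM (-5.20), and Tlr13, a sensor of bacterial ribosomal RNA, was lower at 35.4 and 33.2 RPKM in microglia, against 196 and 177 RPKM in BMDM (-2.41). Nlrp3, an inflammasome sensor, was higher at 33.4 and 30.6 RPKM in microglia, against 9.71 and 10.7 RPKM in BMDM (1.56), whereas Casp1, the protease that inflammasomes activate, was lower at 11.1 and 10.6 RPKM in microglia, against 46.0 and 45.9 RPKM in BMDM (-1.99).

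The largest differences of all were on the BMDM side. Gpnmb (mm9 chr6:48986517-49008181), a glycoprotein of lysosomes and phagocytes, had 1.37 and 0.762 RPKM in microglia, against 1052 and 1283 RPKM in BMDM, a difference of -9.15. Lgals3 (galectin-3, mm9 chr14:47993535-48005842), a lectin released by activated macrophages, had 5.58 and 3.32 RPKM in microglia, against 1644 and 2488 RPKM in BMDM (-8.57). Cd36, a receptor for oxidised lipids and fatty acids, had 0.431 and 0.247 RPKM in microglia, against 322 and 435 RPKM in BMDM (-8.13), and Lpl, the lipoprotein lipase, had 2.42 and 2.14 RPKM in microglia, against 718 and 740.0 RPKM in BMDM (-7.80). In each of these both BMDM libraries lay far above both microglial ones. Cd5l, a secreted scavenger protein of tissue macrophages, had 0.072 and 0 RPKM in microglia, against 353 and 257 RPKM in BMDM (-8.19). Npy, a neuropeptide, was listed at 0 in both microglial libraries and had 76.9 and 80.2 RPKM in BMDM. Others among the 15 were Clec4d, a lectin receptor, at 0.903 and 0.341 RPKM in microglia, against 123 and 167 RPKM in BMDM, Pltp, a phospholipid transfer protein, at 0.473 and 0.447 RPKM in microglia, against 117 and 115 RPKM in BMDM, and Fxyd5, a regulator of the sodium pump, at 3.19 and 1.88 RPKM in microglia, against 262 and 267 RPKM in BMDM. Emp1, an epithelial membrane protein, had 0.054 and 0.013 RPKM in microglia, against 67.5 and 111 RPKM in BMDM.

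The genes on this side include most that define damage-associated or lipid-associated microglia, the state described around plaques and dying neurons. Of 26 tested, 15 were lower in microglia and 3 higher (median -1.71). Those higher were Csf1, Timp2, an inhibitor of metalloproteinases, at 27.4 and 31.4 RPKM in microglia, against 18.9 and 19.4 RPKM in BMDM, and Cst7 (cystatin F) at 4.14 and 6.67 RPKM in microglia, against 0.270 and 1.13 RPKM in BMDM. Timp2 was not called without either microglial library (0.68 and 0.49). Apoe, the lipid carrier, varied more within each cell type than between them, with 187 and 479 RPKM in microglia, against 322 and 149 RPKM in BMDM, and its Q7 and Q175 pairs had opposite signs. Fabp5 and Fabp4, fatty acid binding proteins, had 0.804 and 0.773 RPKM in microglia, against 33.1 and 33.0 RPKM in BMDM and 0.276 and 0.055 RPKM in microglia, against 11.5 and 14.9 RPKM in BMDM, and Mmp12, the macrophage elastase, had 0.836 and 0.493 RPKM in microglia, against 98.3 and 70.5 RPKM in BMDM; all 3 were lower.

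Monocyte and peripheral macrophage genes were low in microglia: 19 of 25 tested were lower and 2 higher (median -4.47). Mrc1 (CD206), the mannose receptor of border macrophages, had 1.93 and 2.05 RPKM in microglia, against 75.7 and 72.1 RPKM in BMDM (-4.65), Pf4, a platelet and macrophage chemokine, had 0.901 and 0.954 RPKM in microglia, against 107 and 141 RPKM in BMDM (-6.0), and Ms4a7 had 0.551 and 0.574 RPKM in microglia, against 97.4 and 112 RPKM in BMDM (-6.07). Cd163 and Lyve1, further border macrophage markers, did not reach 1 RPKM in any library. The 2 higher were Hp (haptoglobin), at 18.6 and 5.90 RPKM in microglia, against 3.29 and 2.85 RPKM in BMDM, and Fn1 (fibronectin), at 2.61 and 1.57 RPKM in microglia, against 0.320 and 0.113 RPKM in BMDM. Hp was not called without the Q7 microglial library (1.52 with it, 0.76 without) or without the Q175 BMDM library (1.44). Hp is also a neutrophil transcript, and its Q7 microglial value is well above the Q175 one, as for the neutrophil genes given further on.

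Structural genes followed. Vim (vimentin), an intermediate filament protein, had 12.9 and 5.15 RPKM in microglia, against 1675 and 1619 RPKM in BMDM (-7.48), and Lgals1 (galectin-1) had 2.54 and 1.75 RPKM in microglia, against 272 and 407 RPKM in BMDM (-6.74). The calcium-binding protein gene S100a4 had 7.15 and 3.66 RPKM in microglia, against 557 and 916 RPKM in BMDM (-6.86), Anxa1 (annexin A1) had 19.6 and 7.28 RPKM in microglia, against 661 and 602 RPKM in BMDM (-5.60), and Ahnak, a giant scaffold protein, had 1.55 and 0.667 RPKM in microglia, against 165 and 189 RPKM in BMDM (-6.43). Of 31 cytoskeletal, S100 and annexin genes 25 were lower and 3 higher. Fscn1 (fascin), which bundles actin in fine processes, was the clear exception, at 40.1 and 38.1 RPKM in microglia, against 0 and 0.031 RPKM in BMDM (5.30). Actb, often used as an internal standard, had 692 and 619 RPKM in microglia, against 1450.2 and 2002 RPKM in BMDM and was itself lower (-1.38).

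Adhesion and matrix genes went both ways. Microglia were higher for Itgb5, an integrin chain that binds vitronectin, at 172 and 169 RPKM in microglia, against 15.6 and 21.0 RPKM in BMDM, for F11r (JAM-A), a junction protein, at 39.5 and 31.9 RPKM in microglia, against 1.12 and 1.17 RPKM in BMDM, and for Cd34, a sialomucin, at 35.0 and 39.4 RPKM in microglia, against 0.741 and 1.54 RPKM in BMDM. They were lower for Cd44, the hyaluronan receptor, at 2.24 and 0.973 RPKM in microglia, against 72.5 and 79.4 RPKM in BMDM, for Itga4, the alpha-4 integrin chain of leukocyte homing, at 0.699 and 0.415 RPKM in microglia, against 23.4 and 20.8 RPKM in BMDM, and for Alcam at 0.431 and 0.246 RPKM in microglia, against 47.9 and 62.6 RPKM in BMDM. The list counted 10 higher and 10 lower of 29. Among 27 matrix genes, 10 were higher and 16 lower: beside Sparc and Adamts1, Serpine2, a protease inhibitor, was higher at 38.3 and 40.6 RPKM in microglia, against 0.809 and 0.747 RPKM in BMDM, and Adam8, a membrane protease, was lower at 2.07 and 0.913 RPKM in microglia, against 86.5 and 121 RPKM in BMDM. Mmp13, a collagenase, was listed at 0 in both microglial libraries and had 4.35 and 3.95 RPKM in BMDM.

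Receptors that take up debris and dead cells went both ways. Mertk, the receptor kinase for apoptotic cells, had 86.3 and 85.7 RPKM in microglia, against 7.44 and 6.31 RPKM in BMDM (3.47) and was higher, while its relative Axl had 3.09 and 7.36 RPKM in microglia, against 17.1 and 21.6 RPKM in BMDM (-1.79) and was lower. Msr1 (scavenger receptor A) had 1.12 and 0.980 RPKM in microglia, against 79.1 and 108 RPKM in BMDM (-5.51) and was lower, and Mrc2, a collagen receptor, had 6.89 and 6.63 RPKM in microglia, against 0.017 and 0.004 RPKM in BMDM (2.94) and was higher. Of 22 scavenger and C-type lectin receptors 2 were higher and 14 lower, and of 18 genes for apoptotic cell uptake 7 and 5. Paired and inhibitory receptors had 9 higher and 14 lower of 29. Lag3, a receptor for MHC class II, was listed at 0 in both BMDM libraries and had 23.5 and 32.6 RPKM in microglia. Cd33 (Siglec-3) was higher at 22.1 and 25.2 RPKM in microglia, against 5.44 and 6.01 RPKM in BMDM, and Slamf7 lower at 0.184 and 0.193 RPKM in microglia, against 73.1 and 48.2 RPKM in BMDM. Lilrb4 and Gp49a, near-identical neighbours that may share reads, were lower at -4.78 and -5.58.

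Complement genes lay on both sides. The 3 chains of C1q, which starts the classical pathway and tags synapses, were among the abundant microglial genes: C1qa had 939.7 and 779 RPKM in microglia, against 23.7 and 16.4 RPKM in BMDM (5.37), C1qb 915 and 829.5 RPKM in microglia, against 146 and 145 RPKM in BMDM (2.57) and C1qc 753 and 703 RPKM in microglia, against 129.9 and 116 RPKM in BMDM (2.56), all higher. C3, the central component, was lower at 3.65 and 1.55 RPKM in microglia, against 41.5 and 13.5 RPKM in BMDM, as were Cfp (properdin) at 2.12 and 0.942 RPKM in microglia, against 59.2 and 92.6 RPKM in BMDM and the anaphylatoxin receptor C5ar1 at 10.6 and 8.16 RPKM in microglia, against 53.5 and 74.4 RPKM in BMDM. In all 7 complement and Fc receptor genes were higher and 8 lower of 20.

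MHC class II genes also split. The peptide-presenting chains H2-Aa and H2-Ab1 had 6.68 and 6.32 RPKM in microglia, against 45.0 and 26.5 RPKM in BMDM and 6.82 and 5.78 RPKM in microglia, against 56.2 and 30.0 RPKM in BMDM, and the invariant chain Cd74 had 29.4 and 27.5 RPKM in microglia, against 172 and 81.6 RPKM in BMDM; all 3 were lower. H2-Oa and H2-Ob, the chains of the chaperone that restrains peptide loading, were higher at 7.67 and 8.14 RPKM in microglia, against 0.603 and 0.643 RPKM in BMDM and 7.56 and 8.70 RPKM in microglia, against 0.410 and 0.425 RPKM in BMDM. Of the costimulatory molecules Cd86 was higher at 38.4 and 34.3 RPKM in microglia, against 4.17 and 3.45 RPKM in BMDM (2.96) and Cd40 lower at 0.607 and 0.241 RPKM in microglia, against 6.17 and 5.95 RPKM in BMDM (-2.32). The list counted 9 higher and 6 lower of 16. For class I, 8 of 19 genes were lower and 2 higher; B2m, the common light chain, had 391 and 604 RPKM in microglia, against 1122 and 1563 RPKM in BMDM (-1.44). H2-Q6 and H2-Q7 were the 2 higher, H2-Q7 not without the Q175 microglial library (0.29) or either BMDM library (0.70 and 0.59), and class I heavy chains are close enough in sequence to share reads.

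Interferon-stimulated genes were lower in microglia as a group. Irf7 is given above; Isg15, a ubiquitin-like protein, had 1.32 and 1.66 RPKM in microglia, against 40.0 and 51.2 RPKM in BMDM (-4.22), Ifitm3, which blocks virus entry, had 3.53 and 3.89 RPKM in microglia, against 88.0 and 124 RPKM in BMDM (-4.49), and Rsad2 (viperin) had 0.579 and 1.40 RPKM in microglia, against 37.2 and 35.6 RPKM in BMDM (-4.26). Each was lower in microglia. Of 36 tested, 32 were lower and 0 higher (median -2.44); over the other settings at the same filter the lower count on deposited or rescaled values lay between 32 and 33. Within microglia the Q175 library was above the Q7 one for Oasl2 (1.11 and 3.28 RPKM) and Ifi27l2a (14.2 and 31.7 RPKM), far from the BMDM values of 57.4 and 60.5 and 276 and 321 RPKM.

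Acid hydrolases and other lysosomal genes lay on either side. Ctsf (cathepsin F) was higher, at 31.8 and 29.2 RPKM in microglia, against 1.94 and 2.03 RPKM in BMDM (3.40), as was Cst3. Lipa, the acid lipase, was lower at 17.9 and 14.0 RPKM in microglia, against 203 and 306 RPKM in BMDM (-3.89), as were Ctsb (cathepsin B) at 159 and 163 RPKM in microglia, against 723 and 1128 RPKM in BMDM (-2.48) and the membrane protein Lamp1 at 156 and 167 RPKM in microglia, against 2624 and 1434 RPKM in BMDM (-3.58). Ctsd (cathepsin D), an abundant transcript of both cells, had 1818 and 1756 RPKM in microglia, against 1649.6 and 2132 RPKM in BMDM, with overlapping groups. Of 36 lysosomal genes 8 were higher and 16 lower, with a median of -0.59, close to the -0.57 of all genes. The vacuolar proton pump that acidifies lysosomes was lower in 13 of 18 subunit genes and higher in 1, Atp6v0a2 at 15.6 and 13.8 RPKM in microglia, against 9.26 and 7.62 RPKM in BMDM, which was not called without either microglial library (0.65 and 0.82). Atp6v0d2, a subunit of osteoclasts and some macrophages, had the largest difference, at 0.047 and 0.014 RPKM in microglia, against 22.3 and 18.2 RPKM in BMDM (-4.36).

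Lipid handling genes included some on either side. All 19 tested genes of cholesterol synthesis and uptake were lower on deposited values and 18 on both scales (median -1.88), the exception being Dhcr7, at 0.801 and 0.880 RPKM in microglia, against 1.85 and 2.71 RPKM in BMDM. Sqle (squalene epoxidase) had 0.160 and 0.076 RPKM in microglia, against 21.8 and 25.4 RPKM in BMDM (-4.46) and was lower. Plin2, which coats lipid droplets, was lower at 6.02 and 5.28 RPKM in microglia, against 198 and 236 RPKM in BMDM (-5.04), and Soat1, which esterifies cholesterol, at 10.1 and 10.7 RPKM in microglia, against 108 and 97.2 RPKM in BMDM (-3.18). Abca1, the cholesterol exporter, was higher at 45.1 and 56.1 RPKM in microglia, against 18.4 and 11.2 RPKM in BMDM (1.74), as was the related transporter Abca9 at 67.6 and 66.2 RPKM in microglia, against 3.10 and 2.63 RPKM in BMDM (4.14). Of 23 genes of lipid efflux and storage 6 were higher and 11 lower.

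**Figure D4:**
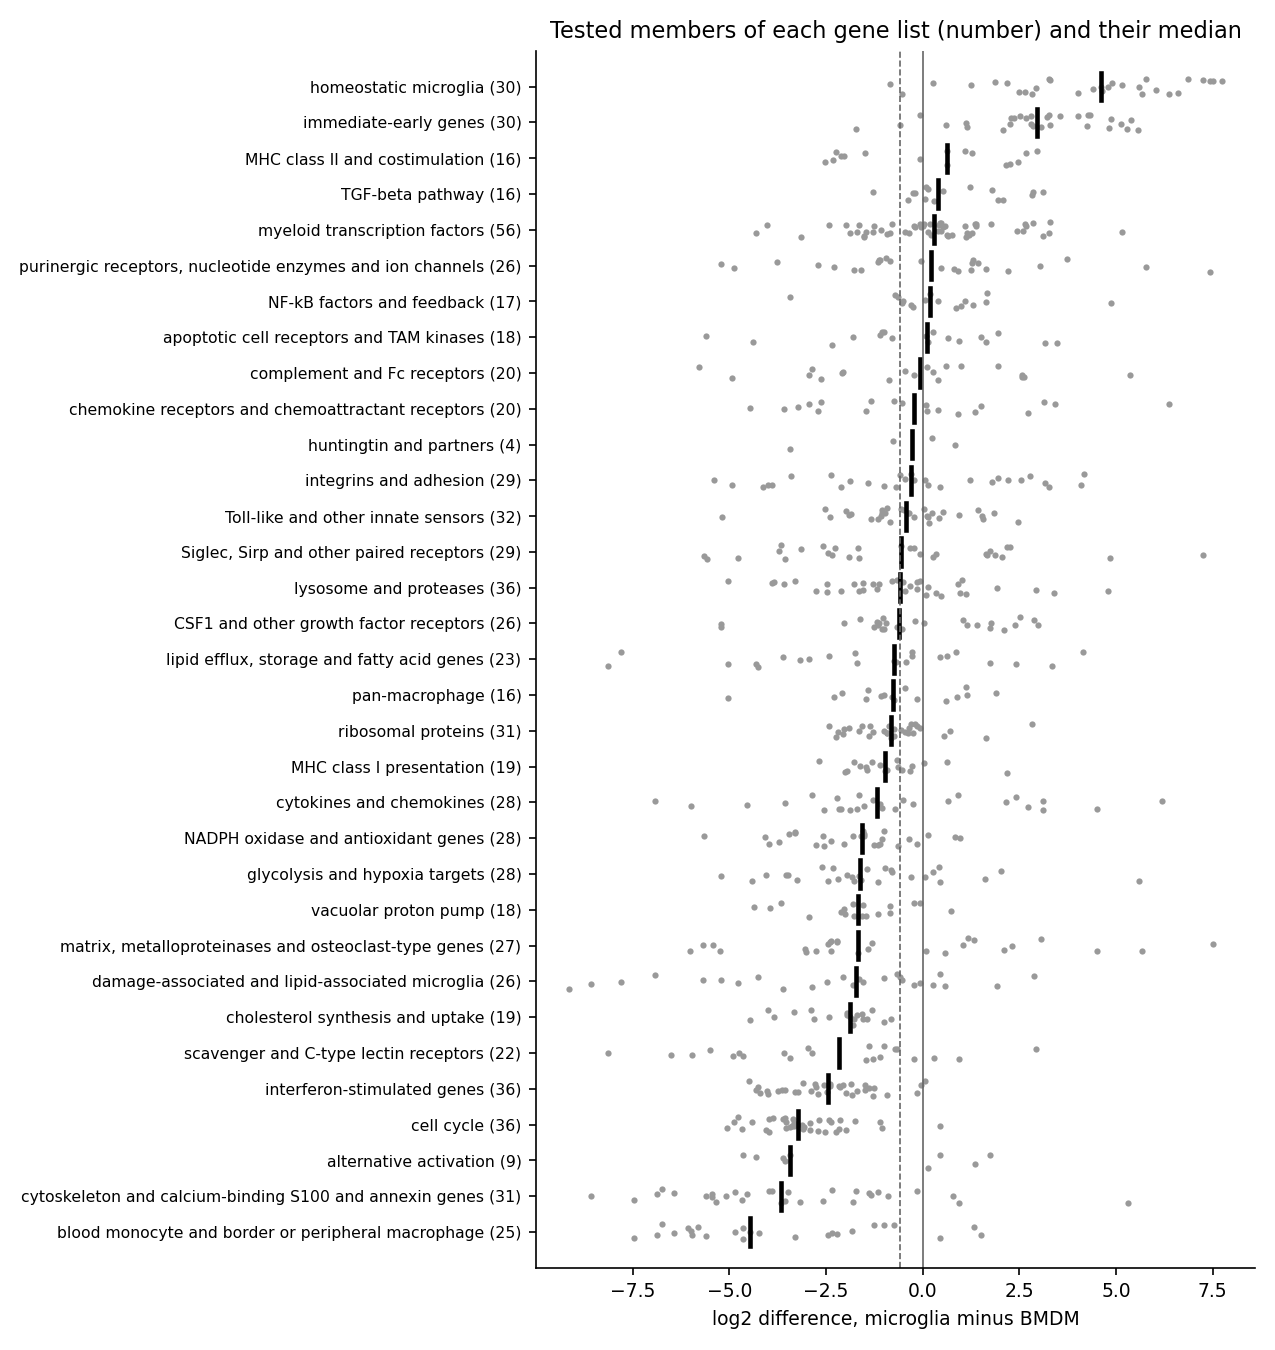
Log2 difference (microglia minus BMDM) of each tested member of 33 gene lists (grey points), with the list's median as a black bar, sorted by median. The solid line is 0 and the dashed line the median of all tested genes, -0.57; homeostatic microglia (median 4.63) and immediate-early genes (2.96) lie to the right, monocyte and peripheral macrophage genes (-4.47), cytoskeletal genes (-3.65) and the cell cycle (-3.22) to the left.

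Energy and redox genes were lower in microglia for the most part. Of 28 glycolytic and hypoxia-responsive genes 18 were lower and 3 higher, or 5 higher without the Q175 BMDM library. Pkm (pyruvate kinase) had 19.4 and 15.3 RPKM in microglia, against 175 and 166 RPKM in BMDM (-3.24), Aldoa (aldolase A) 37.9 and 31.2 RPKM in microglia, against 461 and 358 RPKM in BMDM (-3.52) and Pfkp, a phosphofructokinase, 0.567 and 0.395 RPKM in microglia, against 34.7 and 27.2 RPKM in BMDM (-4.42), all lower. Hk2 (hexokinase 2) was higher at 26.1 and 23.6 RPKM in microglia, against 5.63 and 5.00 RPKM in BMDM (2.03), beside Slc2a5. Gapdh, a common standard, was too low in this table to serve as one, at 1.05 and 0.426 RPKM in microglia, against 0.460 and 2.02 RPKM in BMDM; it has many pseudogenes, and the sources used here do not tell how reads with several matches were counted. Of 28 oxidase and antioxidant genes 18 were lower and 2 higher, the higher count being 0 without the Q175 microglial library and 1 without the Q7 BMDM library. Cybb, the catalytic chain of the phagocyte NADPH oxidase, had 10.4 and 4.94 RPKM in microglia, against 609 and 280.1 RPKM in BMDM (-5.65), while Ncf1, a cytosolic subunit, had 79.6 and 76.6 RPKM in microglia, against 91.2 and 82.5 RPKM in BMDM and was not called on deposited values. The iron store genes Fth1 and Ftl1 were lower at -4.08 and -3.72, and also have pseudogenes.

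Proliferation genes were almost all lower. Mki67, the Ki-67 antigen of cycling cells, had 1.20 and 0.729 RPKM in microglia, against 61.4 and 66.3 RPKM in BMDM (-5.06), Top2a, which untangles DNA before mitosis, had 2.34 and 1.28 RPKM in microglia, against 59.3 and 81.2 RPKM in BMDM (-4.68), and Ccnb2, a mitotic cyclin, had 0.725 and 0.477 RPKM in microglia, against 41.4 and 43.5 RPKM in BMDM (-4.77). Of 36 tested cell cycle genes 35 were lower and 0 higher (median -3.22), with Hmgb2 not called on deposited values, at 3.54 and 6.77 RPKM in microglia, against 2.68 and 4.16 RPKM in BMDM.

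Markers of cells that the gate could have let through were measured in the same libraries. Neutrophil genes were higher in microglia in 10 of 14 tested and lower in 1 (median 1.51). Without the Q7 microglial library 6 were higher on deposited values (median 0.88), and without the Q175 BMDM library 7. S100a8, a calgranulin of neutrophils, had 816 and 252 RPKM in microglia, against 129 and 69.1 RPKM in BMDM (2.25), and its partner S100a9 had 692 and 217 RPKM in microglia, against 243 and 108 RPKM in BMDM (1.25), so the Q7 microglial library was well above the Q175 one for both. For S100a9 the groups overlapped, the Q175 microglial value lying below the Q7 BMDM value, and it was not called without the Q7 microglial library (0.42) or the Q175 BMDM library (0.67). The list's summed RPKM was 1896 and 638 in microglia, against 481 and 279 in BMDM. Csf3r, given above, is among the 10 higher, but its Q7 microglial value was not above the Q175 one (42.5 and 45.7 RPKM). Hp, also given above, is a neutrophil transcript outside this list. The part of neutrophils in the values of Csf3r and Hp was not tested. Ttr (transthyretin), made by the choroid plexus, had 32.9 and 55.5 RPKM in microglia and was listed at 0 in both BMDM libraries. Enpp2 (autotaxin), also of choroid plexus, had 7.97 and 12.9 RPKM in microglia, against 0.039 and 0 RPKM in BMDM. The rest of that list was under the filter. Kl had 0.479 and 0.884 RPKM in microglia, against 0 and 0 RPKM in BMDM. Foxj1 had 0.102 and 0.216 RPKM in microglia, against 0 and 0.024 RPKM in BMDM. Aqp1 had 0.085 and 0.215 RPKM in microglia, against 0.012 and 0.023 RPKM in BMDM. Folr1 went the other way, at 0.135 and 0.268 RPKM in microglia, against 0.739 and 0.5 RPKM in BMDM. The ependymal markers Ccdc153 and Tmem212 were listed at 0 in all 4 libraries. Of 4 astrocyte genes tested, 2 were higher and 2 lower: Slc1a3, a glutamate transporter, had 22.5 and 19.7 RPKM in microglia and was listed at 0 in BMDM, Glul (glutamine synthetase) had 177 and 172 RPKM in microglia, against 27.1 and 35.1 RPKM in BMDM, Aldoc (aldolase C) had 0.103 and 0.247 RPKM in microglia, against 11.9 and 12.5 RPKM in BMDM (-3.49) and Aldh1l1, a folate enzyme, had 0.343 and 0.341 RPKM in microglia, against 2.18 and 2.55 RPKM in BMDM (-1.32). The defining markers Gfap and Aqp4 had 0.032 and 0.026 RPKM and 0 and 0 RPKM in microglia. Snap25, of neurons, had 0.263 and 0.115 RPKM in microglia, and Cldn5, of endothelium, was listed at 0 in every library. Of 14 oligodendrocyte genes 3 were tested, with a median of -0.36 on deposited values. Mag, a myelin-associated glycoprotein, was the one higher, at 4.43 and 3.16 RPKM in microglia, against 0.507 and 0.390 RPKM in BMDM. Mbp was lower on deposited values alone (-0.66). Cnp was called on neither scale (-0.36 deposited, 0.28 scaled). No fibroblast gene of 9 passed the filter.

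BV2, an immortalised mouse microglial line with an empty vector, gave a further readout that had no part in choosing these genes. Its 2 RNA libraries (24 h, and a second whose time the sources give in conflict) reached 1 RPKM both for 59.2% of the 1725 genes higher in microglia and for 85.7% of the 3494 lower, against 82.1% of all tested genes. Among the 100 largest differences on each side the shares were 30.0% and 83.0%, and 52.0% and 6.0% had less than 0.1 RPKM in both BV2 libraries. P2ry12 had 0.039 and 0.061 RPKM in BV2, Cx3cr1 0 and 0.019, Sall1 0 and 0 and Tmem119 1.26 and 1.86. By contrast Gpnmb had 998 and 514 RPKM in BV2, Spp1 2377 and 2158 and Vim 1251 and 521.

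**Figure D5:**
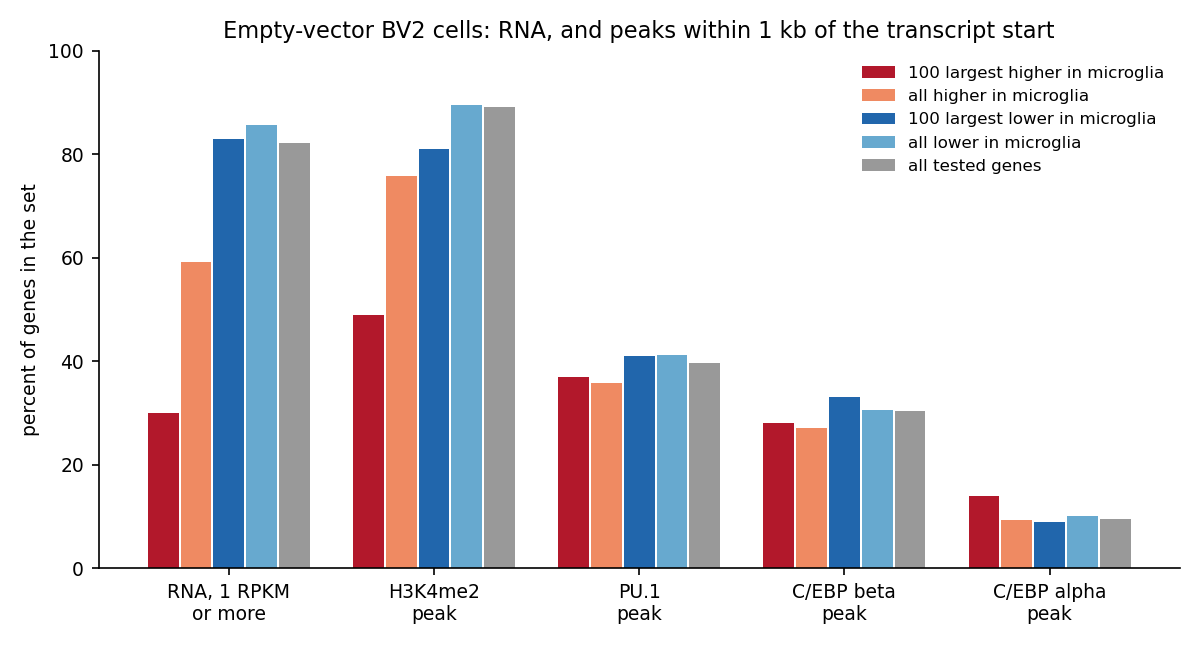
Percent of genes with 1 RPKM or more in both empty-vector BV2 RNA libraries, and with an H3K4me2, PU.1, C/EBP alpha or C/EBP beta peak within 1 kb of the transcript start in empty-vector BV2 cells, for 5 sets of genes (bars, left to right: 100 largest higher in microglia, all higher, 100 largest lower, all lower, all tested). RNA falls to 30.0% and H3K4me2 to 49.0% for the 100 largest higher, while PU.1 stays between 35.8% and 41.2% in the 5 sets.

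Chromatin of the same BV2 cells was mapped for H3K4me2, a histone mark of active and poised regulatory DNA, and for PU.1 and 2 C/EBP factors, with 1 library each and peaks called by the authors on mm9. An H3K4me2 peak lay within 1 kb of the transcript start for 75.7% of the genes higher in microglia, 89.5% of those lower and 89.2% of all tested, and for 49.0% and 81.0% of the 100 largest on each side. PU.1 peaks were spread more evenly, at 35.8%, 41.2% and 39.6% of the first 3 sets and 37.0% and 41.0% of the last. C/EBP beta peaks were at 27.1% of genes higher, 30.5% of genes lower and 30.3% of all tested. C/EBP alpha peaks were at 9.39%, 10.1% and 9.48% of the same 3 sets. Of the genes whose promoters are printed above, Siglech and Gpnmb had a PU.1 peak within 1 kb in BV2, Gpnmb and Cd36 an H3K4me2 peak, and P2ry12 neither within 1 kb. Genes of one set share a cell line and a library here, so these shares describe BV2 and carry no test.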

How the data were processed

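RNA was read from 1 table of RPKM values that the authors deposited, 1 column per library, on mm9 RefSeq transcripts; per the submitters' processing notes the tools were STAR 2.0.3e, HOMER and edgeR, while the counting of shared reads and the use of strand are not given in the sources used here. No read counts were used. Small RPKM values times length came out as whole reads, within 0.1 reads, for 100% of those examined, which gave the implied depth; 1 RPKM on 2000 bases is 57.5 to 95.6 reads. Values were tested as log2(RPKM + 1), which understates the change of low genes, with limma 3.58.1 (R 4.3.3), cell type and genotype as terms, 4 libraries and Benjamini-Hochberg adjustment over all 10258 genes. The fit was also run on simulated data, with a single spread for all genes and 200 of 10258 genes changed. All 200 were called in the right direction, as were 9 of the 10058 unchanged genes. Far fewer genes changed there than were called here, and no median shift was simulated, so it cannot vouch for these calls. The 33 gene lists and 10 marker lists, and the comparison itself, were chosen with earlier results of these data known. Named genes are the 15 largest differences each way that were at least 2-fold in both genotype pairs, list members with the largest differences or against their list, the most abundant genes, and a set of macrophage standards. Fos, Mitf, Nr1h3, P2rx4, Cd33, Ncf1, Apoe and Tnf, and the genes with printed promoters, were chosen after their values were seen. Separation of the cell types in genes named by size follows from that choice and adds no support. Some genes that these rules name are not reported here. Peak positions in BV2 cells are those the authors deposited, used as positions alone. Promoter windows came from RefSeq on GRCm38.p6, by symbol, with 6222 tested genes having a single window. Alternatives covered pseudocounts, filters, scalings, transcript choice, the fit and each library left out.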

Additional observations from a re-analysis of the deposited data

How the results depend on the processing

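The spread rests on 1 residual degree of freedom and on 1 library per cell type and genotype, so sizes carry more than p-values here. On deposited values every limma p-value rests on a single spread shared by all genes. On scaled values the spread differed between genes, and p did not follow size alone. There Mmp8 had a difference of -2.35 with a limma adjusted p of 8.9e-06, and Mag 2.11 with 7.9e-07. Genes near 1 RPKM rest on 57.5 to 95.6 reads for a 2000-base transcript. Scaling decided the number of calls. Beside 1725 genes higher and 5312 lower as deposited, median ratio scaling gave 3487 and 3494, quantile normalization 3518 and 3430, and equal totals without the 100 most abundant genes 3470 and 3339. Of all calls, 24.5% were higher as deposited and 49.9% after median ratio scaling. A filter of RPKM 5 left 6193 genes and 911 higher calls. Leaving out 1 library in turn, with no genotype term, gave 1142 to 2236 genes higher and 3866 to 6051 lower, the lowest higher count being without the Q7 microglial library. The other settings, among them no genotype term (no replicate block: 1807 higher, 5444 lower), kept both counts within 1.5 times.

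Of 208 named genes, 169 kept direction and call under all 17 alternatives, and 12 changed sign under at least 1. Under quantile normalization, median ratio scaling and equal totals the log2 difference was 1.04, 0.64 and 0.67 for Spi1, 0.12, 0.66 and 0.69 for Ctsd, 0.58, 0.26 and 0.29 for Itgam, 0.92, 0.57 and 0.60 for Ncf1, 0.84, 0.45 and 0.48 for Tnf, 0.47, 0.29 and 0.32 for Tgfb1, and 0.012, 0.048 and 0.047 for Gapdh. Ptprc had 0.35 under quantile normalization and 0.012 under equal totals, and P2ry6 0.24 and Rpph1 -0.79 under quantile normalization. With 1 library left out, values ran from -0.23 to 1.13 for Apoe, -0.26 to 0.11 for Ctsd, -0.82 to 0.23 for Gapdh, -0.37 to 0.84 for Htt, -0.52 to 0.39 for Spi1 and -0.56 to 0.045 for Tnf. The cause was not tested. List medians changed sign in 36 of 711 cases, in 14 lists, and BV2 peak shares rose with the wider window of 10 kb, PU.1 to 78.7% of genes higher, 80.0% of genes lower and 78.9% of all tested.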

Other observations

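Genes of huntingtin and its partners went both ways. Htt itself had 3.40 and 2.72 RPKM in microglia, against 4.22 and 1.26 RPKM in BMDM, not called on deposited values, with more spread between the genotypes in BMDM than between cell types. Of 4 tested members of that list Hip1 (huntingtin interacting protein 1) was lower, at 0.716 and 0.542 RPKM in microglia, against 14.7 and 18.7 RPKM in BMDM (-3.44), and Haao, an enzyme of the kynurenine pathway, higher, at 1.71 and 1.43 RPKM in microglia, against 0.109 and 0.881 RPKM in BMDM (0.83), though not without either microglial library (0.75 and 0.91). Rest, the repressor of neuronal genes, had 3.13 and 3.51 RPKM in microglia, against 6.49 and 6.15 RPKM in BMDM and was lower on deposited values alone.

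Genes of alternative activation did not move as one. Il4ra and Socs1, a brake on cytokine signalling, were higher (Socs1 at 2.67 and 2.32 RPKM in microglia, against 0.082 and 0.689 RPKM in BMDM), 5 of 9 tested were lower, Clec10a, a galactose-type lectin, among them at 0.157 and 0.328 RPKM in microglia, against 10.3 and 15.0 RPKM in BMDM, and Arg1 and Retnla did not reach 1 RPKM in any library. Ribosomal protein genes, which have many pseudogenes, ranged from Rps27 at 17.7 and 12.5 RPKM in microglia, against 1.68 and 0.843 RPKM in BMDM (2.84) to Rpl13 at 2.99 and 2.89 RPKM in microglia, against 14.7 and 27.5 RPKM in BMDM (-2.42), with 4 higher and 12 lower of 31. On deposited values the ribosomal counts were 4 higher and 19 lower, with 2 higher without either microglial library and 12 lower without the Q175 one. Haemoglobin beta, shared between near-identical copies, was low, with Hbb-b1 at 3.96 and 5.05 RPKM in microglia, against 0.951 and 3.11 RPKM in BMDM. Of 9 dendritic cell markers only Siglech and Batf3, at 4.91 and 3.44 RPKM in microglia, against 1.17 and 0.829 RPKM in BMDM, passed the filter, and Cd79b, a B cell receptor chain at 4.71 and 3.10 RPKM in microglia, against 1.36 and 2.08 RPKM in BMDM, was the one lymphocyte gene tested, and was not called without the Q7 microglial library (0.60). Among 16 endothelial and pericyte markers 3 were tested, with Pecam1 higher at 2.72 and 1.71 RPKM in microglia, against 0.442 and 0.261 RPKM in BMDM and Kdr and Abcb1a lower at -1.22 and -1.25.

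Noncoding RNAs made by RNA polymerase III or processed from longer transcripts were among the most abundant genes of both cell types although RNA had been enriched for poly(A). Rmrp, Snord17 and Rpph1 together took 1.96 and 1.40% of the implied depth in microglia, against 0.481 and 0.716% in BMDM. Rpph1 was not called on deposited values (0.41), with differences of opposite sign in the Q7 and Q175 pairs (1.04 and -0.22), while Rmrp (1.88) and Snord17 (3.42) were higher. Transcripts under 200 bases, left out of the tests, took 5.40 and 4.64% in microglia, against 1.26 and 1.21% in BMDM.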
